A study of Mus musculus with 8 samples.

Results

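Kinesins are the motor proteins that walk along microtubules. The genes described here are those whose mouse symbol begins with *Kif* followed by a digit or the letter c, a rule that takes names and no measured value into account. It found 43 of the 21058 genes in the deposited tables, of which 42 are protein-coding and 1, *Kif4-ps*, is a transcribed pseudogene. RefSeq holds 46 symbols of this form, and the other 3 (*Kif22-ps*, *Kif16bos* and *Kifc5c-ps*) were not analysed here.

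RNA-seq was carried out on pachytene spermatocytes from adult males, with 4 *Arid1a* WT and 4 *Arid1a* cKO libraries. It asked how transcript abundance changes when ARID1A, a putative DNA-binding subunit of the BAF chromatin remodeler, is lost. The floxed *Arid1a* mice were on a CD1 background, and the paper does not state that of the Cre mice crossed to them. *Arid1a* WT males carried floxed *Arid1a* (fl/fl or fl/+) without Cre, and *Arid1a* cKO males were *Arid1a* fl/fl; *Stra8-Cre* Tg/0, with Cre driven by the *Stra8* promoter in spermatogonia. Cells were sorted by sedimentation through an albumin gradient (Sta-Put) from pooled testes. Fractions found to be mainly, but not purely, pachytene spermatocytes by light microscopy were combined. The study describes excision as incomplete, so that some *Arid1a* cKO spermatocytes keep ARID1A. Whether each library came from its own pool of males is not given in the sources used here, so p-values measure only the spread between these libraries.

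A kinesin has a motor domain that hydrolyses ATP, joined to parts that bind cargo, chromosomes or a partner subunit. Some kinesins build and shorten the spindle on which chromosomes separate, some drive transport in cilia and in the sperm flagellum, and others carry vesicles and organelles. In the male germ line these roles meet, since a pachytene spermatocyte has yet to assemble its meiotic spindles, and the spermatid that follows shapes its head and grows a tail along microtubules.

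Of the 43 genes, 42 held at least 10 counts over the 8 libraries and were tested with edgeR's quasi-likelihood test on estimated counts, with calls made at 0.05 or less after Benjamini-Hochberg adjustment. In *Arid1a* cKO relative to *Arid1a* WT, 20 kinesin genes were higher, 14 were lower and 8 were not called. Among all 17643 genes tested, 74.0% were called in either direction, 36.5% higher and 37.5% lower, against 81.0%, 47.6% and 33.3% of the kinesin genes. A change of at least 2-fold was seen for 6 genes that rose and 7 that fell, where 20.6% of all genes tested rose and 16.0% fell by this much. In 21 kinesin genes the lowest *Arid1a* cKO library was above the highest *Arid1a* WT library and in 14 the order was the opposite, against 34.0% and 34.9% of all genes tested. The median log2 fold change was 0.11 (range -2.43 to 2.33), beside -0.02 over all genes tested, and it moved between 0.01 and 0.22 with the processing. In bulk samples such as these, fewer cells of a type and less RNA per cell cannot be told apart.

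**Figure D1:**
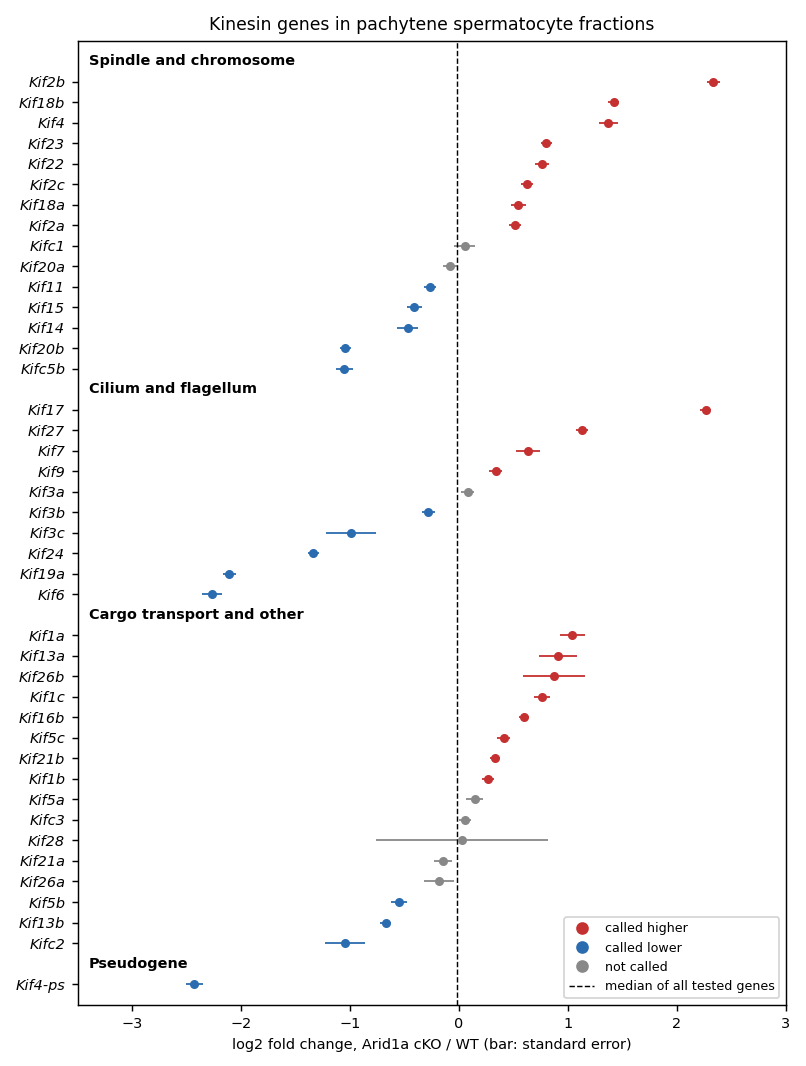
Log2 fold change of each tested kinesin gene in *Arid1a* cKO relative to *Arid1a* WT (n = 4 libraries each), grouped by role, with bars for the standard error, red for called higher, blue for called lower and grey for not called. The spindle, cilium and transport groups each hold genes on both sides of the dashed median of all tested genes, with *Kif2b* highest at 2.33, and the pseudogene *Kif4-ps* is lowest at -2.43.

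Libraries held 15850961 to 22044507 estimated counts, of which the kinesin genes took 0.331% to 0.341% in *Arid1a* WT and 0.443% to 0.457% in *Arid1a* cKO. *Arid1a* itself was at 105, 128, 121 and 98.8 CPM (counts scaled to the TMM-adjusted library size) in *Arid1a* WT and at 76.4, 81.0, 82.9 and 78.3 CPM in *Arid1a* cKO (log2 fold change -0.51 ± 0.07 SE, edgeR adjusted p = 2.31e-05), with no overlap between genotypes. Pachytene markers were present in every library, with 5 of 11 higher and 6 lower. They summed to 8077 to 9180 TPM (an abundance that also accounts for transcript length) in *Arid1a* WT and 7177 to 7611 TPM in *Arid1a* cKO. These sums rest largely on *Ldhc* (means of 4760 and 3787 TPM) and cover unequal changes. Log2 fold changes of single pachytene markers ran from -3.88 (*Piwil1*) to 2.85 (*Spag6*). Spermatid markers were higher in 16 of 16 genes and summed to 6277 to 7141 TPM in *Arid1a* WT and 25947 to 27739 TPM in *Arid1a* cKO. Sertoli cell markers were lower in 7 of 7 genes (628 to 698 TPM against 178 to 183 TPM). Leydig and peritubular cell markers, 7 genes, together summed to 80.0 to 95.7 TPM against 12.6 to 15.6 TPM. The 5 Leydig cell markers were lower, while the 2 peritubular cell markers, *Acta2* and *Myh11*, were higher (log2 fold change of at most 0.69). Spermatogonial markers were higher in 7 of 10 and lower in 2, and summed to 120.0 to 129 TPM against 112 to 123 TPM. Their log2 fold changes ran from -2.65 (*Id4*) to 0.98 (*Kit*). Leptotene and zygotene markers were higher in 4 of 7 and lower in 3 (291 to 336 TPM against 216 to 231 TPM). Their log2 fold changes ran from -2.68 (*Spo11*) to 2.50 (*Rec8*). Macrophage and blood markers were higher in 5 of 7 and lower in 1 (6.32 to 7.88 TPM against 9.24 to 12.1 TPM). No marker was at 0 in all libraries. Most of these markers differed by genotype across the same 8 libraries as the kinesin genes below. Among all genes tested, 36.5% were higher and 37.5% lower. *Nanos3* of the spermatogonial markers and *Cd68* of the macrophage markers were not called, and the spermatogonial sums overlapped. The part of the markers in the kinesin results was not tested.

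The genes with the largest differences in each direction included *Kif2b* and *Kif17*, which rose, and *Kif6*, which fell. Their promoters are shown because these are the 3 largest fold changes among the protein-coding kinesins. Each sequence is the 250 bases before the RefSeq start (GRCm38.p6), 5′ to 3′ on the gene's strand, with capitals for matches on either strand to the CCAAT box, to the letters TTTGAA (the core of the cell cycle homology region) or to TGACGT (6 bases of the cAMP response element). The windows are chr11:91577556-91577805 on the minus strand for *Kif2b*, chr4:138262001-138262250 on the plus strand for *Kif17* and chr17:49614922-49615171 on the plus strand for *Kif6*. For *Kif6* the start used lies inside the annotated gene, which begins at chr17:49615098, so the last bases of its window are within that gene.
Kif2b: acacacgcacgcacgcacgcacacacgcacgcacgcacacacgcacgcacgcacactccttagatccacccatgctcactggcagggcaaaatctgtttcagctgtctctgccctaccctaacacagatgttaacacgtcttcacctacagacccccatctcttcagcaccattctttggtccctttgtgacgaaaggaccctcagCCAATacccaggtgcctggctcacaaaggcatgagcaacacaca
Kif17: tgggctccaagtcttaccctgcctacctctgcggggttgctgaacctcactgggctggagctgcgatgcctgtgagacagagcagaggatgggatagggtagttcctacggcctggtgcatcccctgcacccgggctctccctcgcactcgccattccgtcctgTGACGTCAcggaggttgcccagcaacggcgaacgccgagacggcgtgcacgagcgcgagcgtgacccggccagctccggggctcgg
Kif6: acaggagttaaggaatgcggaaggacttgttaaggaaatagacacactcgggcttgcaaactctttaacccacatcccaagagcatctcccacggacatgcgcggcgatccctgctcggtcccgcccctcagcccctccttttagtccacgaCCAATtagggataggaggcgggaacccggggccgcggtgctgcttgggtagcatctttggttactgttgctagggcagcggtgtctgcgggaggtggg
*Kif2b* held a CCAAT 44 bases before the start. *Kif6* held one 98 bases before the start used for its window, and so nearer to the start of the annotated gene. In *Kif17* the letters TGACGT occurred on each strand in overlapping positions, 86 and 84 bases before the start, which together spell the capitals in its line. In the same 250 bases of the 33 kinesin genes with a window, 16 (48.5%) held CCAAT, 8 (24.2%) held TTTGAA and 3 (9.09%) held TGACGT, beside 37.5%, 18.3% and 7.29% of all 27025 genes with a window, counted over the same bases. The windows of 8 kinesin genes (one each of *Kif14*, *Kif1a*, *Kif21a*, *Kif26a*, *Kif27*, *Kif2c*, *Kif3a* and *Kif9*) lay wholly inside the annotated gene. Without these windows 27 kinesin genes remained, of which 13 (48.1%) held CCAAT, 4 (14.8%) held TTTGAA and 3 (11.1%) held TGACGT, while the shares over all genes still include such windows. By call, over all 33 genes, CCAAT was in 8 of 19 kinesin genes that rose and 6 of 9 that fell, TTTGAA in 5 and 3, and TGACGT in 2 and 1. A match is a description of these letters and no evidence of binding.

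Among the 15 spindle and chromosome kinesins, 8 rose (53.3%, beside 36.5% of all genes tested), 5 fell (33.3%, beside 37.5%) and 2 were not called. The median log2 fold change of these 15 genes was 0.51. Their summed abundance was 716 to 739 TPM in *Arid1a* WT and 1242 to 1289 TPM in *Arid1a* cKO, a ratio of 1.74. Without *Kif2b*, the other 14 genes summed to 610.5 to 619 TPM and 739 to 756 TPM, a ratio of 1.21. As a share of the TPM of all genes in the table that ratio was 1.09. The TPM sums of role groups and gene lists are not adjusted for the larger TPM total of these genes in *Arid1a* cKO, given below. The spindle group contains 3 microtubule depolymerases, which shorten microtubules at spindle poles and centromeres, and these 3 rose. *Kif19a* and *Kif24*, depolymerases in the cilium and flagellum group below, fell.

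*Kif2b* (chr11:91575286-91577555), a kinetochore depolymerase enriched in testis, was at 164, 149.8, 173 and 175 CPM in *Arid1a* WT and at 866, 830.3, 843 and 801 CPM in *Arid1a* cKO. Every *Arid1a* cKO library was several times above every *Arid1a* WT library (5.04-fold higher, log2 fold change 2.33 ± 0.06 SE, edgeR adjusted p = 1.13e-13). *Kif2c*, the depolymerase of centromeres, was at 135, 118, 123 and 136 CPM in *Arid1a* WT and 209, 196, 195 and 188 CPM in *Arid1a* cKO, also with no overlap but with a smaller rise (0.62 ± 0.06, edgeR adjusted p = 1.63e-07). *Kif2a*, which acts at spindle poles and in neurons, went from between 304 and 349.7 CPM to between 461 and 494 CPM (0.51 ± 0.05). On the per-length scale the order of mean levels changed, from *Kif2a* (191 TPM), *Kif2b* (114 TPM) and *Kif2c* (84.6 TPM) in *Arid1a* WT to *Kif2b* (523 TPM), *Kif2a* (268 TPM) and *Kif2c* (141 TPM) in *Arid1a* cKO.

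*Kif18b*, *Kif18a*, *Kif4* and *Kif22*, which act on microtubule ends or chromosome arms in the spindle, also rose. *Kif18b* (chr11:102905518-102925134), which limits astral microtubules, was at 40.4, 39.8, 40.2 and 43.3 CPM in *Arid1a* WT and at 104, 111, 111 and 111 CPM in *Arid1a* cKO (1.42 ± 0.05, edgeR adjusted p = 2.43e-12). Its relative *Kif18a*, which dampens chromosome movement at metaphase, was at 48.0, 42.2, 38.2 and 45.7 CPM and at 67.4, 59.4, 60.9 and 66.6 CPM (0.55 ± 0.07, edgeR adjusted p = 6.92e-06). Neither gene's genotypes overlapped, and *Kif18b* moved further. *Kif4* (chrX:100626065-100727271), a chromosome arm and central spindle motor, was low in both genotypes, at 5.69, 5.12, 5.97 and 6.51 CPM in *Arid1a* WT and 15.9, 14.3, 15.6 and 14.3 CPM in *Arid1a* cKO (1.37 ± 0.09, edgeR adjusted p = 2.87e-09). It is X-linked, and of 799 X-linked genes tested 66.6% rose, with a median log2 fold change of 1.32, close to that of *Kif4*. *Kif22*, which pushes chromosomes away from the poles, rose by 0.76 ± 0.06 on the log2 scale.

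Motors of cytokinesis and of the central spindle, the microtubule bundle between separating chromosomes, moved in different directions. *Kif23*, the motor of centralspindlin that is also found at the bridges between germ cells, rose from 53.2, 47.2, 51.5 and 52.2 CPM to 91.2, 91.2, 84.8 and 88.9 CPM (0.80 ± 0.05, edgeR adjusted p = 3.01e-09). *Kif20b* (chr19:34922335-34975750), a cytokinesis motor, fell from 124, 115, 117 and 126 CPM to 61.9, 57.4, 58.2 and 56.1 CPM (-1.04 ± 0.05, edgeR adjusted p = 1.18e-10). The genotypes were apart in both genes. *Kif20a*, which carries chromosomal passenger proteins, was at 200.3, 171, 167 and 202 CPM in *Arid1a* WT and 184, 173, 170.3 and 170.3 CPM in *Arid1a* cKO, with overlap (-0.08 ± 0.07, edgeR adjusted p = 0.263). On TPM it was called lower (log2 fold change -0.28 with limma), and in the GENCODE M21 models 29.3% of its exon bases overlap a gene on the other strand. Such overlap was also over 15% for *Kif3c* (40.7%), *Kifc3* (27.5%), *Kif7* (20.3%), *Kif2a* (19.2%) and *Kif4* (15.1%). The paper names its library kit (Kapa mRNA HyperPrep) but no strand setting for quantification. Whether reads of these 6 genes were kept apart from those of their antisense neighbours there is therefore not known. *Kif14*, which binds citron kinase and PRC1, was at 27.1, 28.9, 31.1 and 22.1 CPM and at 18.9, 21.6, 19.6 and 18.4 CPM (-0.47 ± 0.09, edgeR adjusted p = 0.000427). That fall was not seen once transcript length entered the fit (0.07, edgeR adjusted p = 0.623).

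*Kif11*, *Kif15* and *Kifc5b* fell, and *Kifc1* was not called. *Kif11*, which slides antiparallel microtubules apart, went from 56.1, 52.5, 54.4 and 54.8 CPM to 49.5, 45.04, 43.5 and 42.7 CPM, with no overlap (-0.27 ± 0.06, edgeR adjusted p = 0.000527). *Kif15*, which helps hold the poles apart, fell by 0.41 ± 0.07 on the log2 scale. *Kifc1*, a minus-end motor that focuses the poles and takes part in shaping the spermatid head, was at 9.85, 9.33, 12.1 and 10.4 CPM in *Arid1a* WT and 10.9, 11.9, 10.5 and 9.83 CPM in *Arid1a* cKO (0.05 ± 0.10, edgeR adjusted p = 0.629). Its close relative *Kifc5b* (chr17:26917091-26932579) was at 16.8, 17.8, 18.1 and 15.1 CPM and at 7.91, 8.45, 7.94 and 8.42 CPM (-1.05 ± 0.08, edgeR adjusted p = 1.89e-08). The libraries overlapped for *Kifc1* and were apart for *Kifc5b*. In GENCODE M21, 57.2% of the 31-base words of *Kifc1* and 51.6% of those of *Kifc5b* also occur in another gene (39.1% and 36.7% in each other), so how their reads were divided is uncertain.

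The proteins that spindle kinesins work with were described from a list of 19 genes. Of these, 2 rose (10.5%, beside 36.5% of all genes tested), 14 fell (73.7%, beside 37.5%) and 3 were not called. The median log2 fold change of the list was -0.50. Its summed abundance was 1342 to 1428 TPM in *Arid1a* WT and 903 to 932 TPM in *Arid1a* cKO, a ratio of 0.666. *Prc1*, the microtubule crosslinker of the central spindle, was at 284, 255, 234 and 301 CPM in *Arid1a* WT and 105, 98.7, 99.5 and 101 CPM in *Arid1a* cKO (-1.41 ± 0.07, edgeR adjusted p = 1.78e-10). *Cdca8*, the chromosomal passenger subunit borealin, was at 167, 163, 147 and 169 CPM and at 46.9, 52.0, 44.7 and 50.8 CPM (-1.73 ± 0.06, edgeR adjusted p = 3.98e-12). Both were apart between genotypes. *Aurkb*, the kinase of that complex, fell by 1.19 on the log2 scale, and its scaffold *Incenp* rose by 0.35 ± 0.04. *Plk1*, a mitotic kinase, rose from 99.1, 99.5, 99.8 and 111 CPM to 202, 221, 200.3 and 214 CPM (1.03 ± 0.05, edgeR adjusted p = 2.88e-10).

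Of the 10 cilium and flagellum kinesins, 4 rose (40%, beside 36.5% of all genes tested), 5 fell (50%, beside 37.5%) and 1 was not called. The median log2 fold change of these 10 genes was -0.10. Their summed abundance was 615 to 665 TPM in *Arid1a* WT and 783 to 828 TPM in *Arid1a* cKO. Without *Kif17* and *Kif27* the direction turned, as the other 8 genes summed to 487 to 526 TPM in *Arid1a* WT and 443 to 471 TPM in *Arid1a* cKO. As a share of the TPM of all genes in the table, their ratio was 0.801. The heterotrimeric kinesin that carries cargo towards the cilium tip is made of KIF3A, KIF3B or KIF3C, and the adaptor KIFAP3, and transcripts of its parts moved unequally. *Kif3a* was at 161, 140.5, 134 and 154 CPM in *Arid1a* WT and 164, 152, 157 and 149.7 CPM in *Arid1a* cKO, with overlap (0.08 ± 0.06, edgeR adjusted p = 0.247). *Kif3b* was at 338, 328, 299 and 357 CPM and at 283, 264, 278 and 263 CPM (-0.28 ± 0.06, edgeR adjusted p = 0.000473), with each *Arid1a* cKO library lower. *Kif3c* fell by 0.99 ± 0.23 on the log2 scale from a mean of 0.899 ± 0.264 TPM (SD, n = 4), with the antisense overlap given above. *Kifap3* rose from 146, 144, 137 and 158 CPM to 519, 501, 512 and 476 CPM (1.78 ± 0.06, edgeR adjusted p = 7.80e-13).

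*Kif17* (chr4:138262251-138301973), a homodimeric ciliary kinesin that in spermatids partners the CREM coactivator ACT, was at 66.9, 59.7, 64.4 and 62.7 CPM in *Arid1a* WT and at 305, 310.2, 314 and 289 CPM in *Arid1a* cKO. All *Arid1a* cKO libraries were far above the *Arid1a* WT range (4.81-fold higher, log2 fold change 2.26 ± 0.05 SE, edgeR adjusted p = 5.92e-14). *Kif27* (chr13:58284727-58364745), linked to motile cilia, was at 272, 268, 253 and 291 CPM and at 619.6, 586, 599 and 569.7 CPM (1.13 ± 0.05, edgeR adjusted p = 8.65e-11). Its relative *Kif7*, a Hedgehog pathway regulator at the cilium tip, rose by 0.63 ± 0.11 on the log2 scale, at a mean of 1.24 TPM in *Arid1a* WT. *Kif9*, a kinesin of the sperm flagellum's central apparatus, was at 453, 419.7, 395 and 471 CPM and at 586, 539.6, 534 and 539.8 CPM, a small rise with no overlap (0.34 ± 0.06, edgeR adjusted p = 0.000151).

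The falls in this group were as large as the rises. *Kif6* (chr17:49615098-49909847), a motile cilium kinesin of the same family as *Kif9*, was at 39.0, 37.0, 32.6 and 42.7 CPM in *Arid1a* WT and at 8.56, 7.71, 7.27 and 7.97 CPM in *Arid1a* cKO (4.81-fold lower, log2 fold change -2.27 ± 0.09 SE, edgeR adjusted p = 1.33e-11). *Kif19a* (chr11:114764970-114791166), which limits the length of motile cilia, was at 67.7, 63.7, 61.2 and 61.4 CPM and at 13.8, 14.9, 15.5 and 14.6 CPM (-2.11 ± 0.06, edgeR adjusted p = 3.07e-13). *Kif24* (chr4:41389964-41464919), a depolymerase of the mother centriole and in the family of *Kif2b*, was at 84.3, 87.4, 83.6 and 82.2 CPM and at 34.0, 32.5, 32.5 and 34.8 CPM (-1.34 ± 0.05, edgeR adjusted p = 4.16e-12). In each of these 3 genes the highest *Arid1a* cKO library was below the lowest *Arid1a* WT library by more than the spread within either genotype. Relatives of each of the 3 moved the other way, since *Kif9* rose as *Kif6* fell, *Kif18a* and *Kif18b* rose as *Kif19a* fell, and *Kif2a*, *Kif2b* and *Kif2c* rose as *Kif24* fell.

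**Figure D2:**
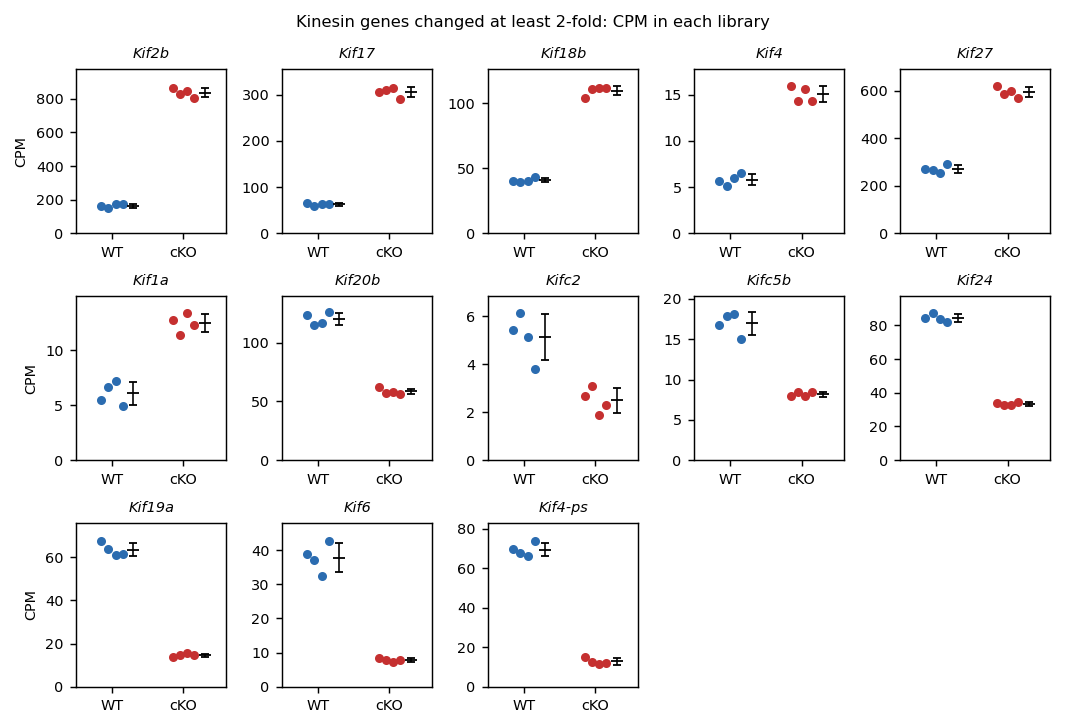
CPM of the 13 kinesin genes called with a change of at least 2-fold, each panel with its own axis from 0, showing 4 *Arid1a* WT libraries in blue and 4 *Arid1a* cKO libraries in red, with the mean and SD beside them. In every panel the genotypes do not overlap, and the gap is narrowest for *Kifc2*, whose lowest *Arid1a* WT library is at 3.82 CPM and highest *Arid1a* cKO library at 3.08 CPM.

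The remaining 17 coding kinesins, mostly carriers of vesicles and organelles, were the least abundant group. They summed to 123 to 144 TPM in *Arid1a* WT and 139 to 157 TPM in *Arid1a* cKO, ranges that overlapped. Of the 16 tested, 8 rose (50%, beside 36.5% of all genes tested), 3 fell (18.8%, beside 37.5%) and 5 were not called. The median log2 fold change of the group was 0.20. *Kif1a* (chr1:93015455-93102039), which carries synaptic vesicle precursors, was at 5.49, 6.68, 7.22 and 4.91 CPM in *Arid1a* WT and 12.8, 11.4, 13.4 and 12.3 CPM in *Arid1a* cKO (1.04 ± 0.11, edgeR adjusted p = 1.06e-06), with no overlap. The rises of its relatives *Kif13a* (0.91 ± 0.17), *Kif1c* (0.76 ± 0.07), *Kif16b* (0.60 ± 0.05) and *Kif1b* (0.27 ± 0.06) were smaller, and *Kif13b* fell by 0.67 ± 0.05. *Kif1b* was not called on TPM (log2 fold change 0.16 with limma). *Kif26b*, an atypical kinesin, rose by 0.88 ± 0.28 (edgeR adjusted p = 0.0126) from 0.346 to 0.910 CPM in *Arid1a* WT to 1.13 to 1.71 CPM in *Arid1a* cKO. The size of this rise depended on the scale, at 1.89 once transcript length entered the fit and 0.36 with limma on log2(TPM + 1), and it was called in each.

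The heavy chains of conventional kinesin are encoded by *Kif5a*, *Kif5b* and *Kif5c*. *Kif5b*, the ubiquitous one, fell from 45.9, 45.8, 50.2 and 38.8 CPM to 30.5, 28.9, 32.1 and 31.6 CPM (-0.55 ± 0.07, edgeR adjusted p = 9.01e-06). *Kif5c* rose from 12.7, 13.1, 12.7 and 12.7 CPM to 17.1, 16.8, 17.6 and 16.6 CPM (0.41 ± 0.06, edgeR adjusted p = 3.03e-05), and its log2 fold change was 2.05 once transcript length entered the fit. *Kif5a*, the neuronal form, was between 7.64 and 8.12 CPM in *Arid1a* WT and between 8.34 and 9.06 CPM in *Arid1a* cKO, and was not called (0.14 ± 0.08, edgeR adjusted p = 0.113) although every *Arid1a* cKO library was above every *Arid1a* WT library. The minus-end motor *Kifc2* (chr15:76659784-76668196) was at 5.44, 6.13, 5.12 and 3.82 CPM and at 2.69, 3.08, 1.87 and 2.31 CPM (-1.05 ± 0.18, edgeR adjusted p = 0.000105). *Kifc3* and *Kif26a* were not called and overlapped between genotypes, with log2 fold changes of 0.05 ± 0.05 and -0.18 ± 0.14. *Kif28* held 5 counts or fewer in every library and *Kif12* held 0 counts in all 8, where a count of 0 allows up to 3 counts per library, so no difference was detectable in either at this depth.

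*Kif4-ps* (chr12:101145609-101149273) is a pseudogene named for *Kif4*, and the longest of its 2 annotated transcripts has 1 exon. *Kif4-ps* was at 69.8, 67.7, 66.2 and 73.8 CPM in *Arid1a* WT and at 15.2, 12.7, 11.6 and 11.95 CPM in *Arid1a* cKO. It fell 5.39-fold (log2 fold change -2.43 ± 0.08 SE, edgeR adjusted p = 1.08e-12), further than any coding kinesin, while *Kif4* rose. Per length, the pseudogene was at 45.1 to 49.4 TPM in *Arid1a* WT, above *Kif4* at a mean of 1.92 ± 0.279 TPM (SD, n = 4), and at 6.76 to 10.03 TPM in *Arid1a* cKO. Few of their 31-base words occur in any other gene (0.826% for *Kif4-ps* and 0.998% for *Kif4*).

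Added over all 43 genes, kinesin transcripts amounted to 1553.8 ± 16.4 TPM in *Arid1a* WT and 2228.5 ± 42.2 TPM in *Arid1a* cKO (SD, n = 4), a ratio of 1.43. The genes in the table took a larger part of all TPM in *Arid1a* cKO (880901 to 886412) than in *Arid1a* WT (780735 to 811443), and as a share of these listed genes the kinesins went from 0.195% to 0.252%, a ratio of 1.29. Without *Kif2b* that ratio was 1.07, and without *Kif2b*, *Kif17* and *Kif27* it was 0.934. *Kif2b* went from 7.37% of kinesin TPM, where it held rank 3, to 23.5%, where it held rank 1. *Kif17* went from 1.88% to 5.71% and *Kif27* from 6.67% to 9.97%. *Kif9*, the most abundant kinesin in *Arid1a* WT, went from 15.1% to 11.9%, and *Kif2a* held rank 2 in both at 12.3% and 12.01%.

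**Figure D3:**
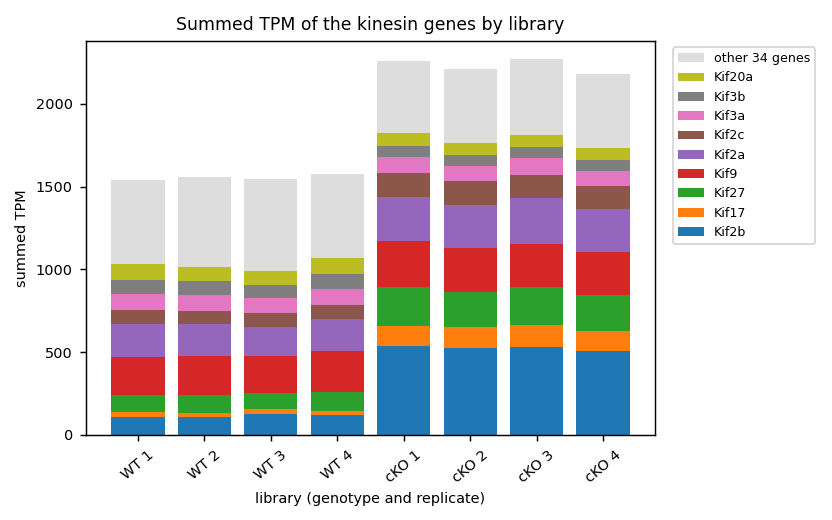
Summed TPM of the 43 kinesin genes in each library, stacked by gene for 9 genes and for the others together in light grey. The total is 1538.6 to 1576 TPM in *Arid1a* WT and 2178.8 to 2267.7 TPM in *Arid1a* cKO, and the *Kif2b* block at the base grows from a mean of 114 to 523 TPM.

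Counts and TPM of a gene together give the mean length of the transcripts assigned to it, because TPM divides counts by that length. This implied length, scaled to the library median, was compared for the 40 kinesin genes with at least 10 counts in every library. It was shorter in *Arid1a* cKO without overlap in 10 genes (25.0%) and longer in 5 (12.5%), against 14.4% and 13.9% of 13958 genes. *Kif5c* had the lowest ratio, 0.310, and *Kif21a*, which regulates microtubule growth, had 0.472, where 0.401% of all genes were under 0.5 and the 5th percentile was 0.749. *Kif14* (0.671), *Kif1a* (0.694), *Kif20b* (0.752) and *Kif2c* (0.843) were also shorter, and *Kif23* was longer (1.19). The 2 genes with the largest rises, *Kif2b* and *Kif17*, had ratios of 1.004 and 1.005. *Kif2b*, which has 1 annotated transcript, is nevertheless among the 5 counted as longer.

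The 2 most shortened genes gave different answers on the per-length scale. *Kif5c* was at 2.62, 4.31, 3.96 and 4.85 TPM in *Arid1a* WT and at 11.9, 16.9, 16.2 and 15.3 TPM in *Arid1a* cKO, with the rise of 2.05 given above when the implied length entered the fit (edgeR adjusted p = 2.12e-07). *Kif21a* was not called on counts, at 16.1, 16.9, 19.2 and 15.1 CPM and at 15.3, 16.0, 15.2 and 14.01 CPM (-0.15 ± 0.08, edgeR adjusted p = 0.113). In TPM it was at 5.06, 4.18, 6.14 and 5.21 in *Arid1a* WT and 8.06, 10.2, 9.02 and 8.36 in *Arid1a* cKO, and with implied length it was called higher (0.90, edgeR adjusted p = 2.21e-05). Annotated transcripts span 367 to 6856 bases for *Kif5c* and 663 to 6439 bases for *Kif21a*. *Kif21b*, its relative, rose on counts (0.33 ± 0.05) but not with implied length (-0.03, edgeR adjusted p = 0.756). These lengths rest on how reads were assigned among annotated transcripts, and transcript structures were not measured.

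**Figure D4:**
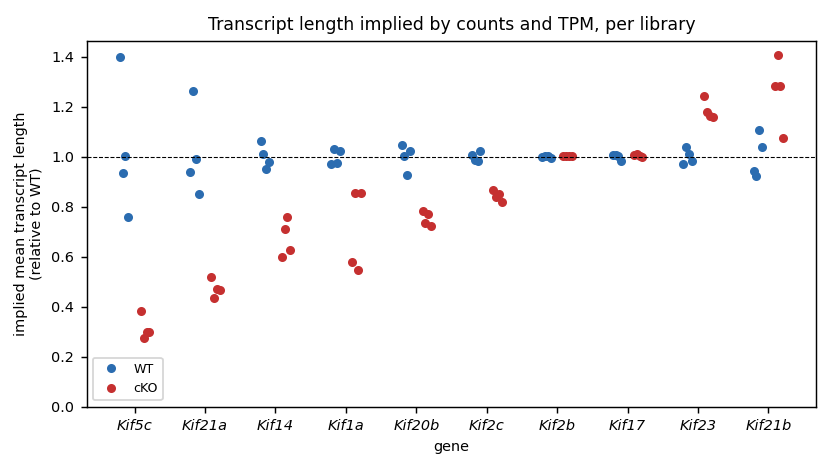
Mean transcript length implied by counts and TPM in each library, relative to the *Arid1a* WT mean, for 10 kinesin genes. The *Arid1a* cKO libraries (red) of *Kif5c* sit between 0.273 and 0.383 and those of *Kif21a* between 0.437 and 0.517, below all *Arid1a* WT libraries (blue), while *Kif2b* and *Kif17* stay on the line at 1.

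The light chains and adaptors that couple kinesins to cargo split between directions, with 7 of 16 higher, 8 lower and 1 not called (median log2 fold change -0.07). These are 43.8% higher and 50% lower, beside 36.5% and 37.5% of all genes tested. *Klc3*, the kinesin light chain found in sperm tails, rose from 3.76, 4.71, 3.71 and 4.14 CPM to 18.0, 18.1, 17.8 and 15.9 CPM (2.10 ± 0.09, edgeR adjusted p = 3.91e-11). *Klc2* fell by 0.89 on the log2 scale, as did *Trak1*, a mitochondrial adaptor (by 0.98 ± 0.06), and *Mapk8ip3*, a scaffold of axonal transport (by 0.94 ± 0.07). *Kifbp*, which binds and inhibits a subset of kinesin motors, rose by 1.77. Kinesins whose symbols lie outside the naming rule were *Cenpe*, a kinetochore motor, and *Stard9*, a centrosomal one, and both rose. *Stard9* was at 75.0, 77.1, 83.5 and 73.5 CPM in *Arid1a* WT and 317, 327, 342 and 310.4 CPM in *Arid1a* cKO (2.07 ± 0.05, edgeR adjusted p = 1.63e-13). *Cenpe* was at 162, 154, 156 and 166 CPM and at 284, 269, 288 and 272 CPM (0.80 ± 0.05, edgeR adjusted p = 9.66e-10).

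Dynein walks the same tracks in the opposite direction. Of its 21 subunits, dynactin subunits and regulators, 9 rose and 9 fell (42.9% each, beside 36.5% and 37.5% of all genes tested). The other 3 were not called, and the median log2 fold change of the list was -0.01. The largest rises were those of the dynein light chain *Dynll2* (1.79 ± 0.05) and the roadblock light chain *Dynlrb1* (1.01 ± 0.13). The largest falls were those of *Dctn5*, a dynactin subunit (by 1.34 ± 0.09), and *Dync1li1*, a light intermediate chain (by 0.91 ± 0.08). The heavy chain *Dync1h1* was not called, with a log2 fold change of -0.14.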

How the data were processed

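The 8 RNA-seq libraries (4 *Arid1a* WT, 4 *Arid1a* cKO) of Sta-Put pachytene fractions were grouped by the genotype in their labels, and 0 columns were left unmapped. The authors quantified reads with Salmon on mm10 gene models, summed them to Entrez genes with tximport and deposited estimated counts and TPM. The strand setting is not given in the sources used here. The deposited DESeq2 table of fold changes and p-values was not used.

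Of 21058 genes, 21036 had a RefSeq record (GRCm38.p6), which gave symbols, coordinates and promoters. Shared 31-base words, exon overlaps and transcript lengths came from GENCODE M21. Kinesin protein sequences were not analysed here.

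Estimated counts were rounded, since the test had been planned on whole numbers. Genes with 10 or more summed counts were tested in edgeR 4.0.16 (R 4.3.3; TMM, glmQLFit, glmQLFTest) with calls at 0.05 after Benjamini-Hochberg adjustment. The ± beside a log2 fold change is its SE, taken from the F statistic. The script was tested on simulated counts. Same-numbered libraries of the genotypes were not paired by the labels. Alternatives were DESeq2 1.42.0, limma 3.58.1 on log2(TPM + 1) and log2(TPM + 0.1), other normalizations and filters, transcript length offsets, a replicate block, an adjusted p of 0.01 and each library left out.

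The kinesin genes, companion lists and markers were chosen with earlier results of these data known. Values per library are given for kinesin genes called with a log2 change of at least 1 and at least 1 TPM in a genotype and for 16 genes chosen by known role, and values or fold changes for the 2 largest rises and falls of each companion list. Values per library of *Kif5c* and *Kif21a*, and the genes *Klc2*, *Kifbp*, *Aurkb* and *Dync1h1*, and the sums without *Kif2b*, *Kif17* or *Kif27* and motif counts without windows inside genes, were chosen after their values were seen. *Hbb-bs* of the blood markers had no matching row.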

Additional observations from a re-analysis of the deposited data

Results flagged for a closer look

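Dixon's criterion at the 95% level was applied to 86 groups of 4 libraries, those of the tested kinesin genes and of *Arid1a*. In 7 groups, all of kinesin genes, 1 library lay apart from the other 3, where chance flags about 1 in 20 groups. *Arid1a* cKO replicate 1 was the high one for *Kif9*, at 586 CPM where the others lay between 534 and 539.8 CPM (gap over range 0.884), and the low one for *Kif18b*, at 104 CPM against 111 CPM in the others (0.936). *Arid1a* WT replicate 4 was low for *Kif15*, at 78.9 CPM against 92.6 to 93.9 CPM (0.914), and high for *Kif18b*, at 43.3 CPM against 39.8 to 40.4 CPM (0.8291), and for *Kif16b*, at 56.4 CPM against 54.9 to 55.1 CPM (0.865). *Arid1a* WT replicate 1 was low for *Kif26b*, at 0.346 CPM against 0.869 to 0.910 CPM (0.927). *Arid1a* WT replicate 2 was high for *Kif5c*, at 13.1 CPM against 12.7 CPM (0.946). In each of these genes the genotypes stayed apart.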

How the results depend on the processing

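Between 19 and 20 kinesin genes were higher and between 14 and 16 lower under every alternative run, and counts of called companion genes stayed within 1.5 times. The replicate block left 20 higher and 14 lower. Same-numbered libraries shared little (correlations of deviations -0.03 to 0.04), so the numbers were not taken as pairs. Of 795 values of single genes, 766 kept direction and call, and 18 changed sign. The median log2 fold change of 0.11 was 0.14 with DESeq2 or its size factors in edgeR, 0.0129 without TMM, 0.15 with autosomal TMM or 10 counts in every library, 0.16 with filterByExpr, 0.0310 and 0.0818 with limma on log2(TPM + 1) and log2(TPM + 0.1), and 0.11 to 0.22 with a library left out, highest without *Arid1a* WT replicate 3 (0.22) and then *Arid1a* cKO replicate 2 (0.18). Without TMM, which moved the median of all genes by -0.10, sign changed for *Kif3a* (-0.0179), *Kifc1* (-0.0487), *Kif28* (-0.0716) and *Kifc3* (-0.0456). With length offsets it changed for *Kif14* (0.0652), *Kif21a* (0.90), *Kif21b* (-0.0340) and *Kif28* (-0.18), and with limma on either TPM scale for *Kif21a* (0.69 and 0.79), *Kif21b* (-0.12 and -0.13) and *Kifc3* (-0.0184 and -0.0188). *Kif28* was -0.0388 with the replicate block and between -0.44 and 0.76 with a library left out. *Kif14* and *Kif1b* were not called with limma, and *Kif21a* was called lower without TMM (-0.25) or without *Arid1a* WT replicate 4 (-0.18). *Kif20a* was called lower without TMM (-0.18) and with length offsets (-0.19), and *Kif5a* higher with 10 counts in every library (0.18). The cause was not tested for these. At this depth *Kif12* and *Kif28* allow no comparison.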
